A study of Mus musculus with 4 samples.

Results

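The basal and the suprabasal cells of control epidermis were compared within each of 2 Ctrl embryo libraries profiled by single-cell RNA-seq. Cells were assigned to a layer by the transcripts of 14 genes, which were keratins and hair follicle genes. A barcode counted as a cell when 2000 genes or more were detected and mitochondrial transcripts made up less than 10% of its UMIs (a UMI is a molecular identifier, so that PCR copies of 1 molecule are counted once). It was called suprabasal when Krt1 and Krt10, the keratin pair of differentiating keratinocytes, summed to at least 50 UMIs per 10000 UMIs of the cell. It was called basal when that sum was under 20, when Krt5, Krt14 and Krt15, the keratins of the basal layer, summed to at least 50, and when each of 3 sets of hair follicle genes (Shh, Wif1 and Lhx2, then Dkk4, Fgf20 and Sp5, then Pthlh, Tafa1 and Krt79) stayed under 2. These rules gave 3369 basal and 1212 suprabasal cells, 4581 in all, out of 6587 Ctrl cells that passed the filter, 11428 Ctrl barcodes and 19789 barcodes in the whole series.

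Per the labels, the cells came from dorsal skin of mouse embryos at E16.5 and had been sorted as positive for both Epcam, a surface protein of epithelia, and α6 integrin, a receptor for the basement membrane. The study's list of litters gives another embryonic day for its single-cell litter, and the labels were followed here. Ctrl embryos (2 libraries) carried floxed Suv39h1 and Setdb1, a constitutive Suv39h2-/- deletion and no K14CreERT2, and TKO embryos (2 libraries) carried the same alleles with K14CreERT2, a tamoxifen-dependent recombinase under a promoter of basal keratinocytes. Both groups received tamoxifen. Ctrl is therefore not wild type, since all its cells lack the H3K9 methyltransferase Suv39h2, and layer differences in wild-type skin were not measured. The study describes its TKO embryos as mosaic, so that TKO sums can mix recombined and unrecombined cells, which were not told apart here. Each library was 1 embryo per the study's methods, so n = 2 for every Ctrl value below.

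In the epidermis, basal keratinocytes sit on the basement membrane through hemidesmosomes, divide, and give rise to suprabasal cells that move outward. Suprabasal cells stop dividing, exchange their keratins, strengthen desmosomes, and later lay down the cornified envelope and the extracellular lipids that seal the skin. Notch receptors on suprabasal cells, engaged by ligands on their basal neighbours, are known to promote this switch.

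The labels name all sorted cells basal, whereas 759 and 453 of the filtered cells of Ctrl replicates 1 and 2 met the suprabasal rule, against 1522 and 1847 that met the basal rule. These proportions are those of cells that were sorted for α6 and then passed the filters, and were not set against unsorted tissue. The summed Krt1 and Krt10 level, which chose the cells, had a median of 432 and 393 UMIs per 10000 in suprabasal cells and 1.79 and 1.16 in basal cells. Just inside the suprabasal limit (50 to 65) lay 36 and 16 cells and just outside it (35 to 50) 34 and 26, with median Krt5, Krt14 and Krt15 sums of 192 and 231 inside and 139 and 253 outside. Between the limits, in neither layer, lay 77 and 60 cells. Ctrl cells with immune or fibroblast markers and no Epcam, which should lack both keratins, had a median Krt1 and Krt10 sum of 0.725 to 2.02, near the basal median.

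Markers that the rule had not used followed the labels of the layers. All 5 further basal markers (Col17a1, Itga6, Itgb4, Dst and Trp63) were higher in basal cells and all 6 further suprabasal markers were higher in suprabasal cells. Suprabasal cells were deeper, with medians of 29367 and 23209 UMIs against 21434.5 and 17306 in basal cells. At an equal depth of 5000 UMIs they held fewer detected genes, 2154 and 2179.5 against 2339 and 2344. Summed markers of other cell types were low in both layers for immune cells (12.1 to 16.1 CPM, UMIs per 1000000), endothelial cells (7.79 to 17.4 CPM) and muscle (0.177 to 0.740 CPM). Other lists were higher or differed between layers. Merkel cell markers summed to 46.3 and 35.5 CPM in basal and 6.37 and 7.06 CPM in suprabasal cells. Melanocyte markers were higher in basal cells of replicate 1 than in the other 3 sums (6.07 to 7.82 CPM). Schwann cell markers summed to 46.9 and 51.2 against 82.5 and 82.1 CPM, nearly all of it Erbb3, while Sox10 and Foxd3 were at 0 in suprabasal cells. Periderm markers summed to 37.1 and 56.0 against 32.7 and 36.6 CPM. The part of Merkel cell, Schwann cell and periderm markers in the results was not tested. Fibroblast markers without Dcn summed to 51.7 and 40.0 CPM in basal and 17.0 and 9.71 CPM in suprabasal cells. Erythroid markers, the haemoglobin genes and Alas2, were uneven, with summed levels of 19.5 and 446 CPM in basal cells and 230.1 and 23.0 CPM in suprabasal cells of replicates 1 and 2, and in each of the high sums most Hbb-bs UMIs came from 5 cells. Barcodes shared by the 2 Ctrl libraries numbered 7.

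Most genes differed between the layers. The UMIs of each layer were summed per library, the 14 gating genes were left out, and the 4 sums were tested with library and layer as terms (edgeR's quasi-likelihood test with TMM scaling, with calls at p below 0.05 after Benjamini-Hochberg adjustment). Of 17313 genes tested, 5486 (31.7%) were higher in suprabasal and 5464 (31.6%) higher in basal cells, 63.2% in all. With a difference of at least 2-fold, 2045 (11.8%) were higher in suprabasal and 3251 (18.8%) in basal cells. Without TMM, on library sizes alone, the split was 3903 against 7301 and the median of all genes moved from -0.03 to -0.27 on the log2 scale, so that small differences depend on the scaling. Because the cells were chosen by genes of the same programme, a gene that varies with Krt1 and Krt10 from cell to cell had to differ here. The tests give the size of the mean difference over both embryos, and the values of each library show whether both share it. These tests rest on 1 residual degree of freedom with the spread pooled across genes. An exact paired permutation over 2 libraries could not go below a two-sided p of 0.5.

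The 12 genes with the largest differences toward suprabasal cells, among those with at least 20 CPM there in both libraries, included enzymes and structural proteins of the outer epidermis (unnamed gene models left out). Elovl4, the elongase that makes the very long fatty acids of skin ceramides, had 3.83 and 1.46 CPM in basal cells of replicates 1 and 2 and 612 and 525 CPM in suprabasal cells (log2 difference 7.78, SE 0.18, edgeR adjusted p 4.77e-12). Serpinb12 had 1.91 and 1.83 CPM in basal cells and 454 and 389 CPM in suprabasal cells (log2 difference 7.81, SE 0.080, edgeR adjusted p 8.57e-15). This gene encodes a clade B serpin, an intracellular protease inhibitor. Casp14 had 0.983 and 0.478 CPM in basal cells and 129 and 102 CPM in suprabasal cells (log2 difference 7.30, SE 0.15, edgeR adjusted p 2.01e-12), and it encodes the caspase that processes filaggrin. Dsc1, the desmocollin of differentiated layers, had 1.65 and 0.61 CPM and 183 and 123 CPM (log2 difference 7.11). In all 4 genes the 2 suprabasal values lay far above both basal values. Gsta1 had 0.133 and 0 CPM in basal cells and 42.7 and 32 CPM in suprabasal cells, with 5 and 0 UMIs behind the basal values. The others were Oas1f, Orm1, Rbp2, Acer1, Ly6g6c, Ly6g6e and Hrnr, with log2 differences from 7.14 to 8.66. Acer1 is a ceramidase, Rbp2 a retinol-binding protein and Hrnr a filaggrin-like protein of the cornified envelope. Orm1 had 76.2 and 32.2 CPM and Hrnr 63.5 and 27.6 CPM in suprabasal cells, so that replicate 1 lay above replicate 2 for both.

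The 12 genes with the largest differences toward basal cells differed less, by log2 -3.00 to -4.48. Dcn had 1212 and 1281 CPM in basal cells and 124 and 146 CPM in suprabasal cells (log2 difference -3.21, SE 0.049, edgeR adjusted p 2.16e-13). Dcn encodes decorin, a matrix proteoglycan better known from fibroblasts, yet its UMIs were found in 96.4% and 96.4% of basal cells, against 3.55% and 4.93% for the fibroblast collagen Col1a1. In suprabasal cells the shares were 27.7% and 34.7% for Dcn and 5.93% and 5.74% for Col1a1. Wnt3a, a secreted Wnt ligand, had 41.8 and 29.9 CPM against 4.48 and 3.41 CPM (log2 difference -3.19, SE 0.12, edgeR adjusted p 3.89e-10). Dlk2, a non-canonical Notch ligand, had 54.8 and 52.3 against 6.47 and 6.91 CPM, and Ctnnal1, an α-catenin relative, had 155 and 145 against 18.4 and 17.8 CPM. Cxcl10 had 32.5 and 122 CPM in basal cells and 1.8 and 4.61 CPM in suprabasal cells. In this interferon-induced chemokine replicate 2 lay above replicate 1 in both layers, and basal cells were higher in each embryo. Nrg1, an ErbB ligand, showed the same order with 24 and 50.4 against 1.66 and 5.71 CPM. Mybpc1, Ankrd29, Mcam, Rgs2, Mtcl1 and Abcg2 completed the group.

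**Figure D1:**
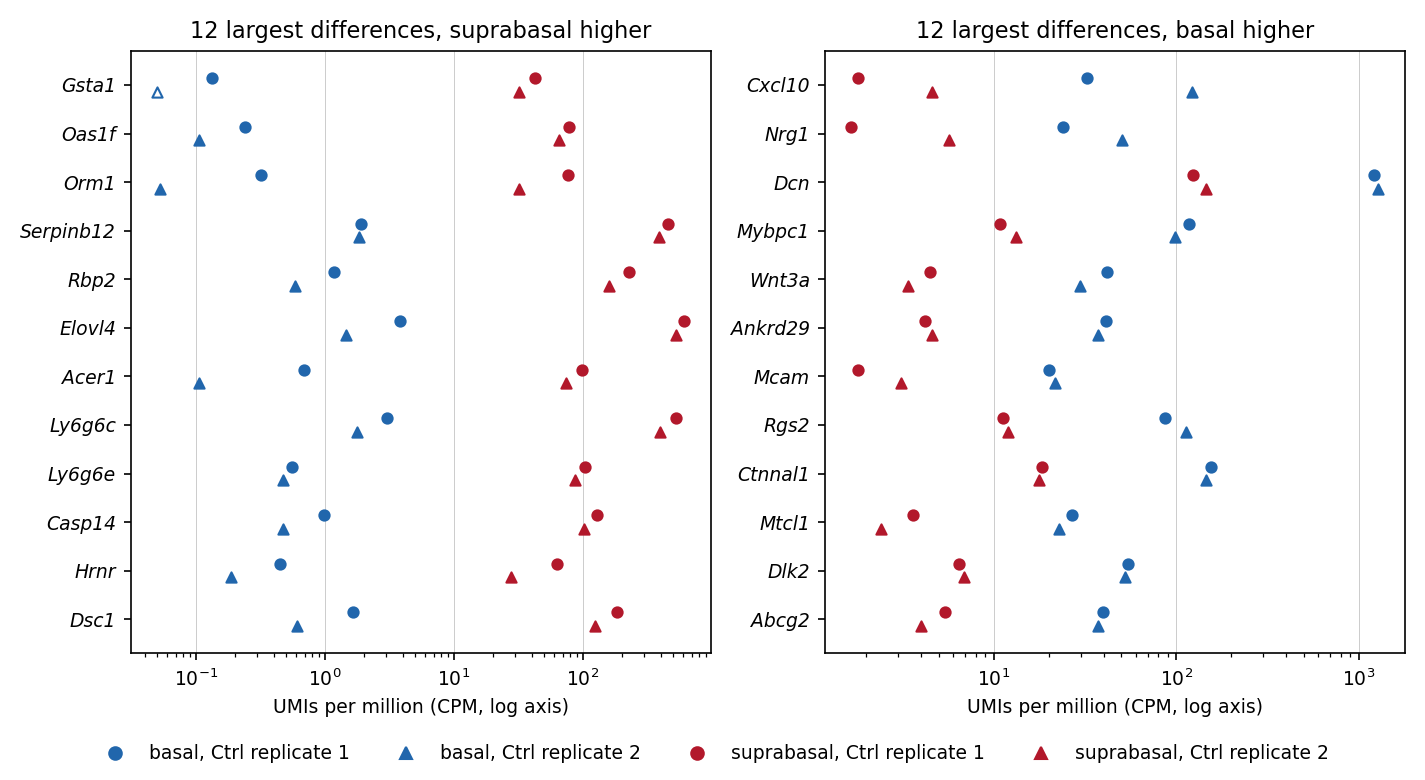
Level of each of the 24 genes in CPM (log axis) in the basal and suprabasal cells of the 2 Ctrl libraries; circles are replicate 1, triangles replicate 2, and the open symbol is a value of 0 drawn at 0.05. The basal and suprabasal points of every gene are separated, by more on the suprabasal side (left) than on the basal side (right).

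Transcripts for adhesion to the basement membrane fell nearly as a block. Of 22 tested genes of hemidesmosomes and the basement membrane, 21 were higher in basal cells and the median log2 difference was -2.09, against -0.03 over all genes. Itga3, the α3 chain of a laminin receptor, had 50.2 and 50.1 CPM in basal and 6.33 and 6.81 CPM in suprabasal cells (log2 difference -2.94, SE 0.11, edgeR adjusted p 4.77e-10). Col4a2, a chain of collagen IV, had 38.3 and 36 against 7.11 and 4.21 CPM (log2 difference -2.67). Itga6, which encodes the α6 integrin used for the sort, had 462 and 459.9 against 97.3 and 123 CPM (log2 difference -2.08, SE 0.073, edgeR adjusted p 1.92e-10), so the suprabasal cells that passed the sort still held its transcript at a lower level. The exception was Plec, the cytolinker plectin, at 117 and 103 against 126 and 119 CPM (log2 difference 0.16, SE 0.064, edgeR adjusted p 0.0463), and its direction turned on library sizes alone (-0.08, not called), and DESeq2 did not call it (adjusted p 0.211).

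The transcripts of cell-cell junctions changed in composition. Of 21 desmosome and adherens junction genes, 14 were higher in suprabasal and 5 in basal cells (median log2 difference 1.82). Besides Dsc1, the largest rises of the list were those of the desmoglein Dsg1b (7.31 and 7.62 against 159 and 139.8 CPM, log2 difference 4.32) and the adhesion receptor Nectin4 (5.23 and 3.93 against 130.0 and 115 CPM, log2 difference 4.75). Dsg1b counts can be shared with near-identical desmoglein 1 copies. Dsp, the plakin that ties desmosomes to keratins, had 693 and 668 CPM in basal and 3091 and 2926 CPM in suprabasal cells (log2 difference 2.14, SE 0.033, edgeR adjusted p 2.26e-13). On the other side, P-cadherin Cdh3 fell from 227 and 215 to 55.6 and 62.2 CPM and the desmoglein Dsg2 from 55.4 and 61.5 to 14.8 and 16.9 CPM (log2 differences -1.91 and -1.89), followed by the plakophilin Pkp4 (-1.59). Among 22 tight and gap junction genes, 17 rose and 2 fell. The connexin gene Gjb5 had 0.292 and 0.318 against 26.4 and 20.4 CPM (log2 difference 6.24) and cingulin, Cgn, had 2.42 and 2.6 against 18.3 and 15.2 CPM. The claudins Cldn3 and Cldn7 were lower in suprabasal cells but under 3 CPM in every sum, and Cldn3 was found in 9 and 16 basal cells, of which 5 held 94.1% and 88.7% of its UMIs.

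**Figure D2:**
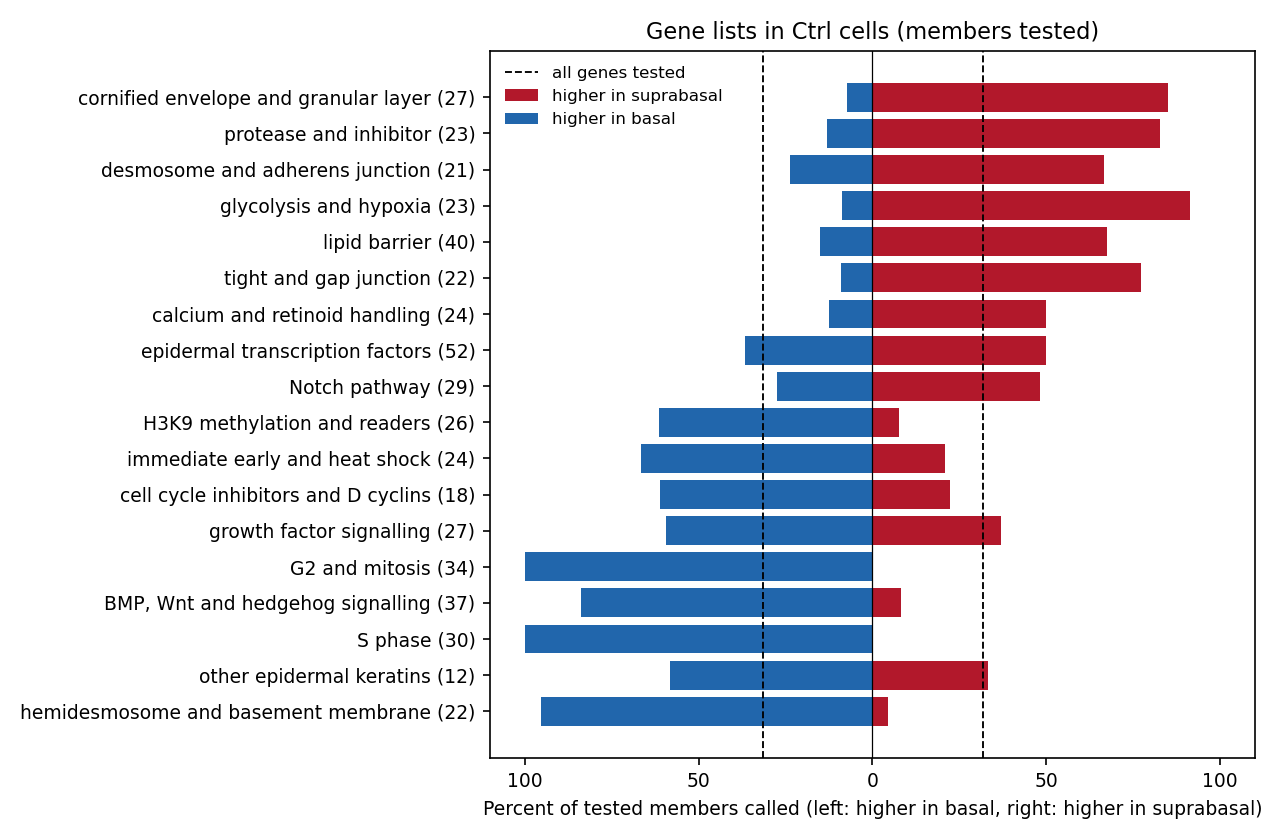
Share of tested members of each of 18 gene lists that was called higher in basal (left) or suprabasal cells (right) of Ctrl, with the number of members tested in parentheses; the dashed lines mark the share over all genes tested, 31.6% and 31.7%. The lists of S phase, G2 and mitosis and the basement membrane lie almost wholly on the basal side, those of the cornified envelope, proteases and glycolysis mostly on the suprabasal side.

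Of 27 tested genes of the cornified envelope and granular layer, 23 were higher in suprabasal cells and 2 in basal cells, with a median log2 difference of 3.39. A further 14 listed genes, among them Ivl, Flg2 and members of the Lce and Sprr families, had too few UMIs to be tested, so the last steps of cornification were poorly covered. Ly6d, a surface protein of stratified epithelia, had 68.6 and 65.8 CPM in basal and 8886 and 8180.3 CPM in suprabasal cells (log2 difference 6.99, SE 0.037, edgeR adjusted p 1.7e-17) and was detected in 99.7% and 99.8% of suprabasal cells. Sbsn, Dmkn and Krtdap, secreted proteins of the upper layers whose genes lie side by side on chromosome 7, had suprabasal levels of 579.6 and 402, 3860.4 and 3508 and 3828 and 3415 CPM against 15.9 and 12.6, 914 and 874 and 623 and 588 CPM in basal cells. Their log2 differences were 5.10, 2.04 and 2.58. Filaggrin, Flg, had 10 and 35 UMIs in suprabasal cells and none in basal cells, at least 37.0-fold higher against a floor of 3 UMIs over both libraries, and 5 cells held 80% of them in replicate 1 and 2 cells all of them in replicate 2. Loricrin, Lor, had 124 and 24.4 CPM in suprabasal cells, of which 5 cells held 70.2% and 32.4%. The keratin Krt2 had 75 UMIs in suprabasal and 1 in basal cells, a ratio of 185 with an exact 95% counting interval of 32.2 to 7407 that covers counting error only. It was found in 16 and 8 suprabasal cells, of which 5 held 72.3% and 85.7% of its UMIs. Flg was found in 7 and 2 suprabasal cells, while Lor was found in 29% and 19.9% of them, most with few UMIs.

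A few genes called higher in basal cells came from single cells as well. UMIs of at least 3 of Krt4, Krt6a, Psca, Upk1b and Mal, genes of simple or superficial epithelia, were found in 1 of 1522 and 2 of 1847 basal cells, and these cells held 98.4% and 98.9% of the UMIs of the 5 genes in the basal sums. Krt6a (-4.74), Krt4 (-4.70) and Crct1 (-6.12) were among the genes called higher in basal cells, and 5 cells held 99.5% and 97% of the Krt6a UMIs there. Without the cells that held 3 of the 5 genes, an alternative chosen after seeing the data, these 3 genes had too few UMIs to be tested. Among all called genes, 121 of 5464 on the basal side and 85 of 5486 on the suprabasal side had at least 50% of their UMIs in 5 cells in both libraries. Within the basal genes with a difference of at least 16-fold the number was 20 of 58. Of 12 other keratins, 4 (33.3%) were higher in suprabasal and 7 (58.3%) in basal cells, or 5 and 4 without those 3 cells. Over all genes the shares were 31.7% and 31.6%. The lists of the cornified envelope and of tight and gap junctions then each had 1 gene higher in basal cells instead of 2. Krt17 fell from 256 and 266 to 59.7 and 95.6 CPM (log2 difference -1.79, SE 0.11, edgeR adjusted p 2.75e-08) and Krt77 rose from 0.85 and 0.584 to 58.9 and 22.5 CPM (log2 difference 5.79, SE 0.17, edgeR adjusted p 3.7e-11). Krt16, a keratin of stressed epidermis, had 17.4 and 22.5 and 35.5 and 101 CPM, with replicate 2 well above replicate 1 in suprabasal cells. Krt18, at 2.47 and 2.44 CPM in basal cells, had 64.5% and 55.4% of its basal UMIs in 5 cells.

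The promoters of the neighbours Sbsn and Krtdap and of Serpinb12 are shown because they stand for the suprabasal side and hold matches to the AP-1 motif TGANTCA, and that of Cdc6, an S phase gene described below, because it holds both motifs searched on the basal side. Each is the 250 bases before the start of the Ensembl canonical transcript (GENCODE vM39, genome build GRCm39), read on the gene's strand, with matches in capitals: AP-1 (TGANTCA) and C/EBP (TTGCNNAA) in the first 3, E2F (TTCCCGC) and the CCAAT box (CCAAT) in Cdc6, on either strand.
Sbsn (chr7:30450708-30450957, plus strand): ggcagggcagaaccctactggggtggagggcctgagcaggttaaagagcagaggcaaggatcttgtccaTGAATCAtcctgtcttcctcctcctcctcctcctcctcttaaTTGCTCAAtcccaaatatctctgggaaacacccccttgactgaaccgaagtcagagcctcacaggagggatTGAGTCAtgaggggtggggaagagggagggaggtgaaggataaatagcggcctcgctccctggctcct
Krtdap (chr7:30487077-30487326, plus strand): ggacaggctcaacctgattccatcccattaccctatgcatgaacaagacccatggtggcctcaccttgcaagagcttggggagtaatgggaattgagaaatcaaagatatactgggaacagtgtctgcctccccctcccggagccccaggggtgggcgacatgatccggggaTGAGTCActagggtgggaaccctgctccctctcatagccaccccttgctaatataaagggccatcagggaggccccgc
Serpinb12 (chr1:106861922-106862171, plus strand): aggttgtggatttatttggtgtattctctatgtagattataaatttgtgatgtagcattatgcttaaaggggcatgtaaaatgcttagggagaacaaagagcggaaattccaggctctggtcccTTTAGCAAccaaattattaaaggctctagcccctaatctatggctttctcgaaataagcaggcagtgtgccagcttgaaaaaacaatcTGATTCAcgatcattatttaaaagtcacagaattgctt
Cdc6 (chr11:98798377-98798626, plus strand): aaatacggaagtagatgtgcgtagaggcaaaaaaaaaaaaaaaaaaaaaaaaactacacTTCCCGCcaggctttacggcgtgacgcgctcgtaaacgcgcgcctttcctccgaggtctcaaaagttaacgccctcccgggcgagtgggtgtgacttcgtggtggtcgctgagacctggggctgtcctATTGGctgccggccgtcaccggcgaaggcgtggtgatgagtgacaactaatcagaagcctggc

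Sbsn held 2 AP-1 matches and 1 C/EBP match, Krtdap 1 AP-1 match, Serpinb12 1 of each, and Cdc6 1 E2F match and 1 CCAAT box. Over the promoters of 13258 tested protein-coding genes, 4.51% held an AP-1 match and 8.0% a C/EBP match. The shares were 7.85% and 9.90% of the 1656 genes at least 2-fold higher in suprabasal cells and 10.4% and 16.9% of the 231 that were at least 16-fold higher. Among the 2483 genes at least 2-fold higher in basal cells they were 4.07% and 7.65%. E2F matches were in 6.25% of all promoters and 12.5% (8) of the 64 cell cycle genes called higher in basal cells, and CCAAT boxes in 36.0% and 46.9%. Most of these 64 promoters, like that of the S phase gene Mcm6 with 1 CCAAT box, thus held no TTCCCGC, unlike that of Cdc6. Other forms of the E2F site were not searched, so a promoter without this match may still hold such a site. The GRHL motif AACNNGTT was in 3.33% of all promoters, 4.11% of the suprabasal genes of at least 2-fold, 6.06% of those of at least 16-fold and 2.86% of the basal genes. For the KLF motif CCNCNCCC these shares were 57.6%, 58.2%, 50.6% and 63.6%, and for the TEAD motif GGAATG 11.7%, 11.6%, 13.4% and 12.7%. Median GC content was 52.0% in the 16-fold group and 56.8% over all promoters. These are matches of letters, without a measure of binding.

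Lipid barrier genes followed those of the envelope. Of 40 genes of barrier lipids, 27 rose and 6 fell, with a median log2 difference of 1.61. Next to Elovl4 and Acer1, Alox12b, the lipoxygenase that oxidises ceramides for the envelope, had 0.239 and 0.212 against 26.9 and 20.4 CPM (log2 difference 6.68, SE 0.19, edgeR adjusted p 3.7e-11). The ceramide synthase Cers2 went the other way, from 17.4 and 16.6 to 2.68 and 2.4 CPM (log2 difference -2.73, SE 0.15, edgeR adjusted p 9.63e-09), as did the desaturase Fads1 at 5.18 and 5.15 against 0.876 and 0.801 CPM. Of 23 proteases and inhibitors, 19 rose and 3 fell. Spink5, the inhibitor of kallikreins, had 0.797 and 0.716 against 38.2 and 22.3 CPM (log2 difference 5.30), while the lysosomal cathepsin Ctsl had 289.7 and 282 against 74.7 and 100.5 CPM (log2 difference -1.73), Ctsz -0.90 and Klk10 -0.72. In the clade B serpin cluster on chromosome 1, 7 of 9 tested genes were at least 2-fold higher in suprabasal cells and 2 at least 2-fold higher in basal cells. Over all genes these shares were 11.8% and 18.8%. In the epidermal differentiation complex on chromosome 3, between S100a1 and S100a10, 14 of 22 tested protein-coding genes were higher in suprabasal and 7 in basal cells. Over all genes 31.7% and 31.6% were, so the basal count lay near that share. Without the 3 basal cells with genes of superficial epithelia described above, 14 and 4 of 20 tested genes were, and S100a7a and Crct1 had too few UMIs to be tested.

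Transcription factors of the epidermis split, with 26 of 52 (50%) higher in suprabasal and 19 (36.5%) in basal cells. Over all genes tested these shares were 31.7% and 31.6%. Grhl1, a grainyhead factor for desmosomal genes, had 9.06 and 7.72 CPM in basal and 238 and 215 CPM in suprabasal cells (log2 difference 4.76, SE 0.076, edgeR adjusted p 3.02e-13). The homeobox genes Barx2 and Dlx5 had log2 differences of 4.23 and 5.82, with 284 and 294 and 48.3 and 40.8 CPM in suprabasal cells. Cebpa, a C/EBP factor of differentiating keratinocytes, had 21.1 and 25.1 against 194 and 193 CPM (log2 difference 3.07, SE 0.079, edgeR adjusted p 1.47e-11). Klf4, needed for barrier formation, had 252 and 328 against 851 and 818 CPM (log2 difference 1.54). Trp63, the master factor of stratified epithelium, was lower in suprabasal cells by less, 751 and 682 against 483 and 438 CPM (log2 difference -0.64, SE 0.040, edgeR adjusted p 3.89e-08). Ovol2 fell from 22.5 and 26.2 to 3.26 and 3.61 CPM (log2 difference -2.81, SE 0.13, edgeR adjusted p 1.73e-09), while its paralog Ovol1 rose from 23 and 45.2 to 106 and 146 CPM (log2 difference 1.94, SE 0.11, edgeR adjusted p 1.2e-08). Ets1 and Mycn fell by 2.63 and 2.58 on the log2 scale from levels of at most 5.2 CPM.

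Several Notch ligands were higher in basal cells and 2 receptors in suprabasal cells. Jag2 had 90.5 and 78.4 CPM in basal and 14.4 and 14.2 CPM in suprabasal cells (log2 difference -2.57, SE 0.097, edgeR adjusted p 3.93e-10), and Dll1 had 30.2 and 27.3 against 4.09 and 4.01 CPM (log2 difference -2.84, SE 0.12, edgeR adjusted p 9.95e-10). Jag1 was an exception, with 55.4 and 56.5 against 59.9 and 58 CPM (log2 difference 0.07, not called). Lfng, the fringe glycosyltransferase that tunes receptor response to ligands, and the non-canonical ligands Dlk1 and Dlk2 were also higher in basal cells (-2.71, -2.89 and -3.01). Dlk1 rested on few cells: it was found in 28 and 47 basal cells, of which 5 held 90.6% and 82.9% of its UMIs. Of the receptors, Notch3 had 9.8 and 7.7 CPM in basal and 156 and 151 CPM in suprabasal cells (log2 difference 4.14, SE 0.096, edgeR adjusted p 5.92e-12) and Notch2 had 16.2 and 19.7 against 74.1 and 64.3 CPM (log2 difference 1.95, SE 0.12, edgeR adjusted p 2.43e-08). Notch1 just missed the threshold, at 246 and 240.4 against 255 and 278 CPM (log2 difference 0.13, SE 0.054, adjusted p 0.0513 in edgeR), and its sign turned on library sizes alone (-0.11), with the suprabasal limit at 200 (-0.21, adjusted p 0.00877) and without cycling cells (-0.22, adjusted p 0.0151), the last 2 past the threshold of the edgeR test. Along the Krt1 and Krt10 sum Notch1 was not flat, as given below. Notch4 was under 1 CPM throughout. Of known targets, Hes1 rose and stood at 58.7 and 68.5 against 135 and 164 CPM (log2 difference 1.23, SE 0.065, edgeR adjusted p 8.08e-09), and Nrarp, a feedback inhibitor, rose as well, with 33.6 and 33.9 against 190.1 and 199 CPM (log2 difference 2.53, SE 0.067, edgeR adjusted p 1.79e-11). Hey1, another target family member, had 39 UMIs in basal and 1 in suprabasal cells, a ratio of 15.8 with an exact 95% counting interval of 2.67 to 640.0.

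Processing enzymes of the receptors moved less and mostly the same way. The γ-secretase genes Aph1a, Psenen and Ncstn were higher in suprabasal cells by 0.82, 0.80 and 0.44 on the log2 scale, and the metalloproteases Adam17 and Adam10 by 0.43 and 0.22. Psen2 was not called (-0.16). Rbpj, the DNA-binding partner of Notch, was slightly lower in suprabasal cells (-0.40), as was the coactivator Maml1 (-0.62), whereas Maml3 was slightly higher (0.26) and Maml2 was not called (-0.08). The ubiquitin ligase gene Dtx2, the fringe Rfng and the inhibitor Numb were higher by 1.36, 0.93 and 0.29. In all, 14 of 29 tested genes (48.3%) were higher in suprabasal and 8 (27.6%) in basal cells, against 31.7% and 31.6% over all genes. On library sizes alone these counts were 9 and 10, and Adam10 changed sign (-0.02), and with either Ctrl library left out it was not called.

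**Figure D3:**
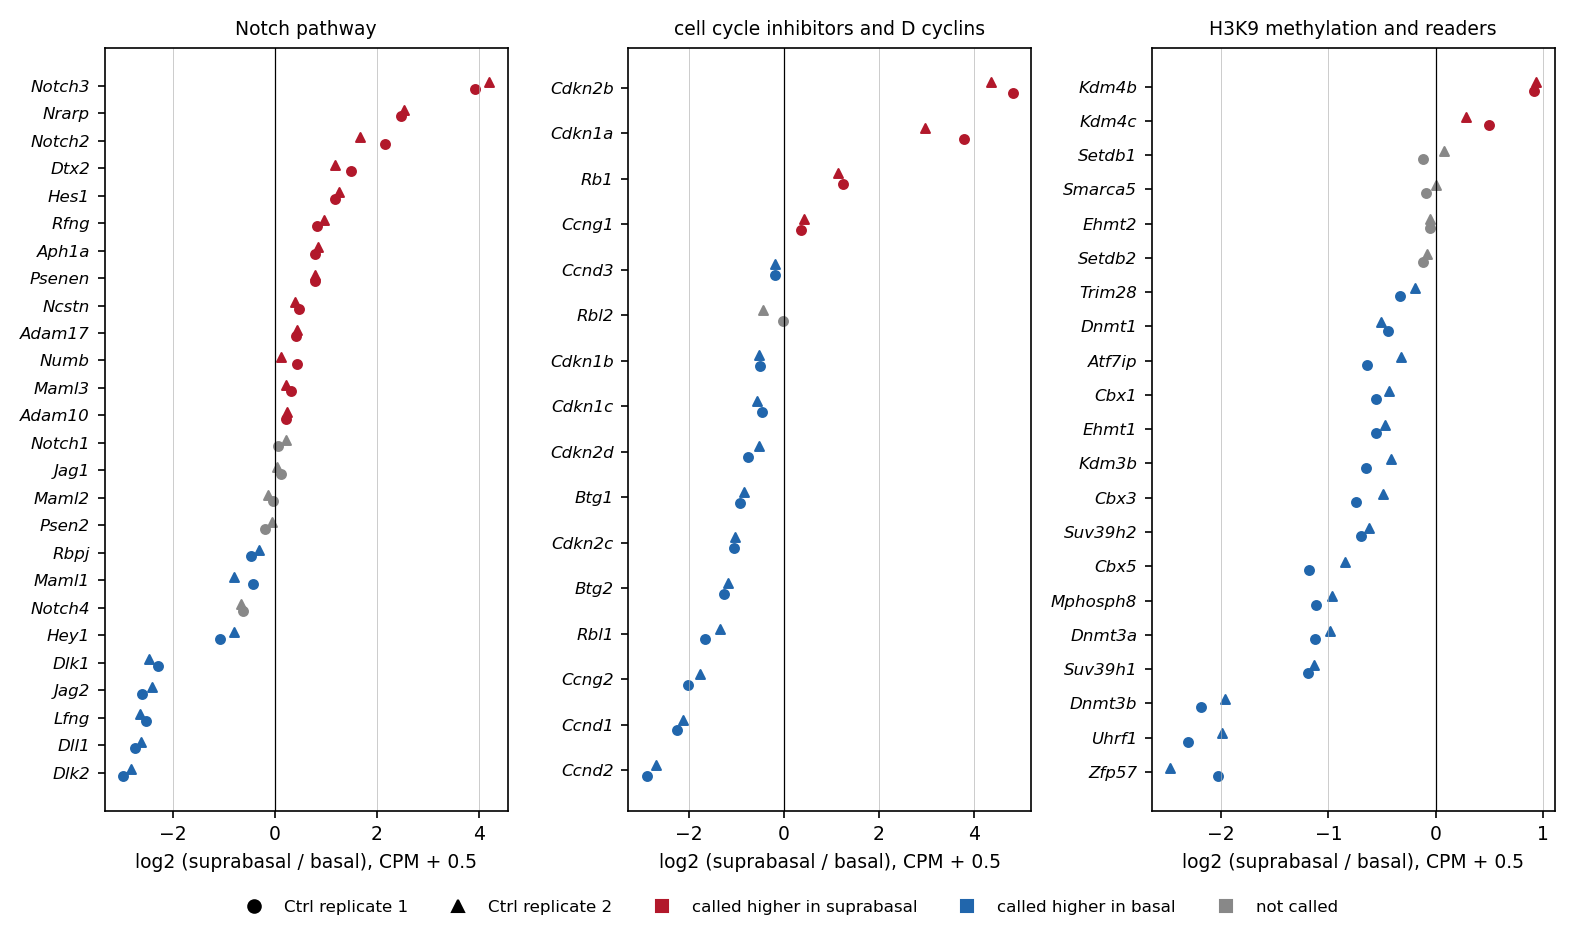
Log2 difference between suprabasal and basal cells in each Ctrl library (CPM plus 0.5) for the members named in the text of the Notch pathway, the cell cycle inhibitors and D cyclins, and the H3K9 methylation genes; circles are replicate 1 and triangles replicate 2. Notch3, Cdkn2b and Cdkn1a lie far to the right and Dlk2, Ccnd2 and Uhrf1 far to the left, and the 2 libraries lie close together for most genes.

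Other signalling genes leaned toward the basal layer. Of 37 BMP, Wnt and hedgehog genes, 31 were higher in basal and 3 in suprabasal cells, with a median log2 difference of -1.39. The Wnt ligand Wnt6 had 228 and 234 against 29.4 and 30.4 CPM (log2 difference -2.95, SE 0.066, edgeR adjusted p 4.77e-12), and Wnt7a and Dkk3 fell by 2.91 and 2.94 on the log2 scale. Ptch1, the hedgehog receptor and target gene, had 287 and 287 against 77.7 and 71.1 CPM (log2 difference -1.94, SE 0.060, edgeR adjusted p 6.03e-11). The 3 on the other side were Axin2, a Wnt target (0.59), Id1 (0.43) and Wnt7b (0.25), all under 2-fold. Wnt7b was not called with either Ctrl library left out (edgeR adjusted p 0.581 and 0.0885) and its sign turned at 5000 UMIs per cell (-0.02, not called). Cells with hair follicle genes had been gated out of the basal class but not of the suprabasal class, where 13 and 11 cells failed the same criteria. Without them 5510 and 5485 genes were called. The 5 hair follicle markers outside the gate summed to 458 and 421 CPM in basal and 135 and 158 CPM in suprabasal cells, and all 5 were higher in basal cells (median log2 difference -1.27). Their part in the result was not tested.

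Growth factor genes split. The platelet-derived growth factor Pdgfa, a signal to the dermis, fell from 323 and 301 to 44 and 46.5 CPM (log2 difference -2.79, SE 0.065, edgeR adjusted p 6.27e-12) and the receptor Fgfr2 from 733 and 716 to 259 and 260.0 CPM (log2 difference -1.48, SE 0.043, edgeR adjusted p 4.21e-11). Epgn, an EGF receptor ligand, fell from 7.65 and 8.33 to 1.07 and 1.6 CPM, while its relatives Tgfa (17.8 and 20.5 against 64.6 and 64.5 CPM, log2 difference 1.76) and Btc (1.47) rose. Il1rn, the interleukin-1 receptor antagonist, rose by 4.21 on the log2 scale and Tgfb1 fell by 2.06. In the list, 10 of 27 genes (37.0%) were higher in suprabasal and 16 (59.3%) in basal cells, against 31.7% and 31.6% over all genes. Of 24 genes of calcium and retinoid handling, 12 (50%) rose and 3 (12.5%) fell. The retinoid-binding protein Crabp2 rose from 0.478 and 0.478 to 15 and 11.4 CPM (log2 difference 4.78), next to Rbp2 above. The phospholipase Plcd1 rose by 2.57, and the kinase Prkca fell from 126 and 100.2 to 35.7 and 28.5 CPM.

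Cell cycle genes were the most uniform group. All 30 S phase genes and all 34 genes of G2 and mitosis were higher in basal cells, with median log2 differences of -1.82 and -1.29. Cdc6, which loads the replicative helicase, had 13 and 9.26 CPM in basal and 2.09 and 1.7 CPM in suprabasal cells (log2 difference -2.57, SE 0.18, edgeR adjusted p 9.72e-08). Chaf1b, a histone chaperone at the fork, had 34.5 and 30.4 against 6.23 and 6.61 CPM, and Dscc1, of the clamp loader, 13.5 and 13.7 against 1.85 and 2.8 CPM. The kinetochore gene Ndc80 had 26.9 and 24.2 against 7.4 and 6.91 CPM, the mitotic kinesin Kif11 111 and 84.8 against 33.9 and 31.5 CPM, and the cytokinesis gene Anln 64.1 and 59.5 against 18.3 and 21.5 CPM. In cells, 70.2% (95% Clopper-Pearson interval 67.8 to 72.5) and 61.9% (59.6 to 64.1) of basal cells held at least 5 UMIs per 10000 of 12 cycle genes, against 16.2% (13.7 to 19.0) and 16.1% (12.8 to 19.8) of suprabasal cells. At 5000 UMIs per cell the shares were 68.4% and 61.2% against 17.5% and 18.1%. These intervals cover counting error only. The difference of the means was 49.9 percentage points, and the groups did not overlap.

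When all cells that met this cycle criterion were left out, the list of S phase stayed on the basal side (26 of 29 tested called, median -1.47). That of G2 and mitosis did not: 8 of 32 genes were higher in basal and 5 in suprabasal cells (median -0.13). Kif11 was then at 0.41 (not called), and the sign of Ndc80 turned as well. The 12 genes of the criterion are cell cycle genes themselves, among them Mcm6, so part of the change in these lists was set by the filter. In the remaining cells 33.1% and 32.4% of genes were called higher in suprabasal and basal cells, and 32.6% differed by at least 2-fold in either direction. The lists of barrier, adhesion and junction genes kept their side, with 21 of 22 basement membrane genes still higher in basal cells.

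Regulators of cell cycle exit changed in both directions. The CDK inhibitors Cdkn2b and Cdkn1a rose, Cdkn2b from 0.213 and 0.345 to 19.5 and 16.7 CPM (log2 difference 6.0, SE 0.23, edgeR adjusted p 4.34e-10) and Cdkn1a from 25.4 and 45.3 to 355 and 355 CPM (log2 difference 3.38, SE 0.14, edgeR adjusted p 1.16e-09). The retinoblastoma gene Rb1 rose by 1.20 on the log2 scale. The inhibitors Cdkn1b, Cdkn1c, Cdkn2c and Cdkn2d were lower in suprabasal cells, with log2 differences of -0.51, -0.52, -1.12 and -0.66. Without cycling cells Cdkn2d was at 0.24 and not called. The D cyclins fell unequally. Ccnd2 fell from 1053 and 973 to 142 and 151 CPM (log2 difference -2.79, SE 0.053, edgeR adjusted p 1.38e-12), Ccnd1 from 84.9 and 84.8 to 17.6 and 19 CPM (log2 difference -2.22, SE 0.091, edgeR adjusted p 8.52e-10) and Ccnd3 from 133 and 136 to 117 and 119 CPM (log2 difference -0.19, SE 0.060, edgeR adjusted p 0.0154), a call lost with either Ctrl library left out. Rbl1, a relative of Rb1 that is made in cycling cells, fell by 1.54 on the log2 scale and Rbl2 was not called (-0.21). Ccng2, Btg1 and Btg2 were lower in suprabasal cells (-1.97, -0.88 and -1.22) and Ccng1 higher (0.40).

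Genes for H3K9 methylation, the pathway targeted in TKO, were lower in suprabasal cells or did not pass the test, with few exceptions. The list also held DNA methylation genes and demethylases, given in the next paragraph. Of its 26 genes, 16 were higher in basal and 2 in suprabasal cells (median log2 difference -0.48), against 22 and 1 on library sizes alone. Suv39h1 had 29.5 and 26.6 CPM in basal and 12.7 and 11.8 CPM in suprabasal cells (log2 difference -1.20, SE 0.10, edgeR adjusted p 5.21e-07). Transcripts of Suv39h2, deleted in these animals per the labels, were counted at 16.3 and 17.4 and 9.83 and 11.1 CPM (log2 difference -0.69, SE 0.11, edgeR adjusted p 0.000139), and the 3' tags do not show whether the deleted exons are missing. Setdb1 was not called, at 67.7 and 55.8 against 62.4 and 59 CPM (log2 difference -0.02, SE 0.085, adjusted p 0.833 in edgeR). The other methyltransferases were Ehmt1, which fell (-0.52), and Ehmt2, which was not called (-0.06). Setdb2, at 9.96 and 9.23 against 9.15 and 8.72 CPM, was not called either. The HP1 genes Cbx5, Cbx3 and Cbx1, readers of the mark, fell by 1.02, 0.62 and 0.50 on the log2 scale, and Mphosph8, of the HUSH complex, by 1.06. Atf7ip, the Setdb1 partner, and Trim28 fell by 0.49 and 0.27.

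Of the DNA methylation genes, Uhrf1 had 149 and 131 against 29.5 and 32.5 CPM (log2 difference -2.18, SE 0.088, edgeR adjusted p 7.24e-10), Dnmt3b -2.34, Dnmt3a -1.07 and Dnmt1 -0.48. The zinc finger gene Zfp57 fell by 3.08 from 3.32 and 5.07 CPM. Kdm4b and Kdm4c, demethylases, rose by 0.94 and 0.40, and Kdm3b fell (-0.54). Without cycling cells, 14 of 26 were higher in basal and 3 in suprabasal cells (median -0.34), Dnmt1 was at 0.09 and Smarca5, a remodeller not called in the full comparison (-0.05), was at 0.16. One relative outside the list, Dnmt3l, a cofactor of DNA methylation known from germ cells, was named after its values were seen. It had 277 UMIs in suprabasal cells, found in 18.2% and 15.9% of them, against 1 UMI in all basal cells, a ratio of 684 with an exact 95% counting interval of 122 to 27096.

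Glycolytic genes rose together. Of 23 genes of glycolysis and hypoxia, 21 were higher in suprabasal and 2 in basal cells (median log2 difference 1.71). The aldolase Aldoc had 1.59 and 1.91 against 31 and 31.9 CPM (log2 difference 4.17, SE 0.13, edgeR adjusted p 5.91e-11), the phosphofructokinase Pfkp 3.91 and 4.72 against 46.2 and 42.3 CPM (log2 difference 3.36, SE 0.12, edgeR adjusted p 2.45e-10) and Bnip3, a mitophagy gene induced by hypoxia, 16.8 and 16.8 against 111 and 96.8 CPM (log2 difference 2.63, SE 0.090, edgeR adjusted p 1.67e-10). The lactate dehydrogenase genes went opposite ways, with Ldha at 313 and 299 against 1297 and 1161 CPM (log2 difference 2.01) and Ldhb at 125 and 131 against 50.4 and 57.3 CPM (log2 difference -1.25). The glucose transporter Slc2a3 was the other gene that fell (-1.27). Nuclear genes of oxidative phosphorylation and ribosomal protein genes, added after the files were seen, rose by small amounts that depend on scaling. Of 83 genes of oxidative phosphorylation, 69 rose and 4 fell (median 0.41), or 46 and 9 on library sizes alone. Of 83 ribosomal protein genes, 72 rose and 1 fell (median 0.19), but 11 rose and 32 fell on library sizes alone, and the 13 genes of the mitochondrial genome turned from 7 higher to 8 lower in suprabasal cells.

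Immediate early genes differed between embryos as well as between layers. Atf3 had 238 and 743 CPM in basal and 70.2 and 301 CPM in suprabasal cells, Ier3 48.3 and 135 against 12.1 and 30.5 CPM and Fosl1 16.9 and 58.6 against 4.09 and 26.2 CPM, with replicate 2 above replicate 1 in both layers each time. Within each embryo they were lower in suprabasal cells (-1.53, -2.08 and -1.52 on the log2 scale), and of 24 genes of the list 16 were higher in basal and 5 in suprabasal cells. Of the latter, the small heat shock protein Hspb1 rose from 102 and 127 to 2612 and 2009 CPM (log2 difference 4.33, SE 0.12, edgeR adjusted p 3.25e-11) and Hspa1b by 0.91.

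Cells were next sorted into 6 bins of their Krt1 and Krt10 sum, the measure that defined the layers, to see where along it each gene changed. These levels are a description without a test. Notch3 had 5.5 and 4.96 CPM in the lowest bin (under 5 UMIs per 10000), 63 and 70.7 CPM at 5 to 20 and 165 and 130.4 CPM at 20 to 50, and stayed between 117 and 225 CPM in the 3 bins above. By these bins most of its rise lay below the suprabasal limit. The bin of 20 to 50 held only 75 and 56 cells and had no limit on basal keratins. Whether it mixes cells of both layers or of other types was not tested. Notch1 had 246 and 249 CPM in the lowest bin, 464 and 516 CPM at 5 to 20 and 429 and 446 CPM at 50 to 200. It then had 180 and 204 CPM at 200 to 1000 and 59.4 and 87.7 CPM above 1000. The suprabasal sum of Notch1 thus joins cells with higher and with lower levels than the lowest bin. Cdkn1a rose over a wider range than Notch3, from 23 and 44 to 113 and 184 CPM at 20 to 50 and 361 and 357 CPM at 200 to 1000. Elovl4 and Dsc1 reached their highest levels in the top bin. Elovl4 had 2.11 and 1.22 CPM in the lowest bin, 95.9 and 87 CPM at 20 to 50, 652 and 576 CPM at 200 to 1000 and 1292 and 1163 CPM above 1000. Dsc1 had 56.1 and 45.5 CPM at 20 to 50, 47.3 and 10.6 CPM at 50 to 200 and 472 and 440.1 CPM above 1000.

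Of the basal side, Ccnd2 was lower in each bin than in the one before, whereas Dcn was slightly higher at 50 to 200 than at 20 to 50 in both libraries. Dcn had 1376 and 1443 CPM in the lowest bin, 297 and 201 CPM at 20 to 50, 319 and 247 CPM at 50 to 200, 57.1 and 105 CPM at 200 to 1000 and 21.9 and 8.94 CPM above 1000. Ccnd2 went from 1164 and 1086 to 433 and 307, 333 and 303, 74.7 and 91 and 0 and 5.37 CPM in the same bins. The share of cycling cells was 71.9% and 62.7% in the lowest bin, 36.0% and 51.8% at 20 to 50, 45.1% and 38.4% at 50 to 200, 7.85% and 8.20% at 200 to 1000, and 0 of 13 and 0 of 23 cells above 1000. Many cells with Krt1 and Krt10 of 50 to 200 therefore still met the cycle criterion, and the low share of suprabasal cells came from those above 200. With the suprabasal limit raised to 200, 586 and 328 suprabasal cells remained and 5395 and 5558 genes were called.

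**Figure D4:**
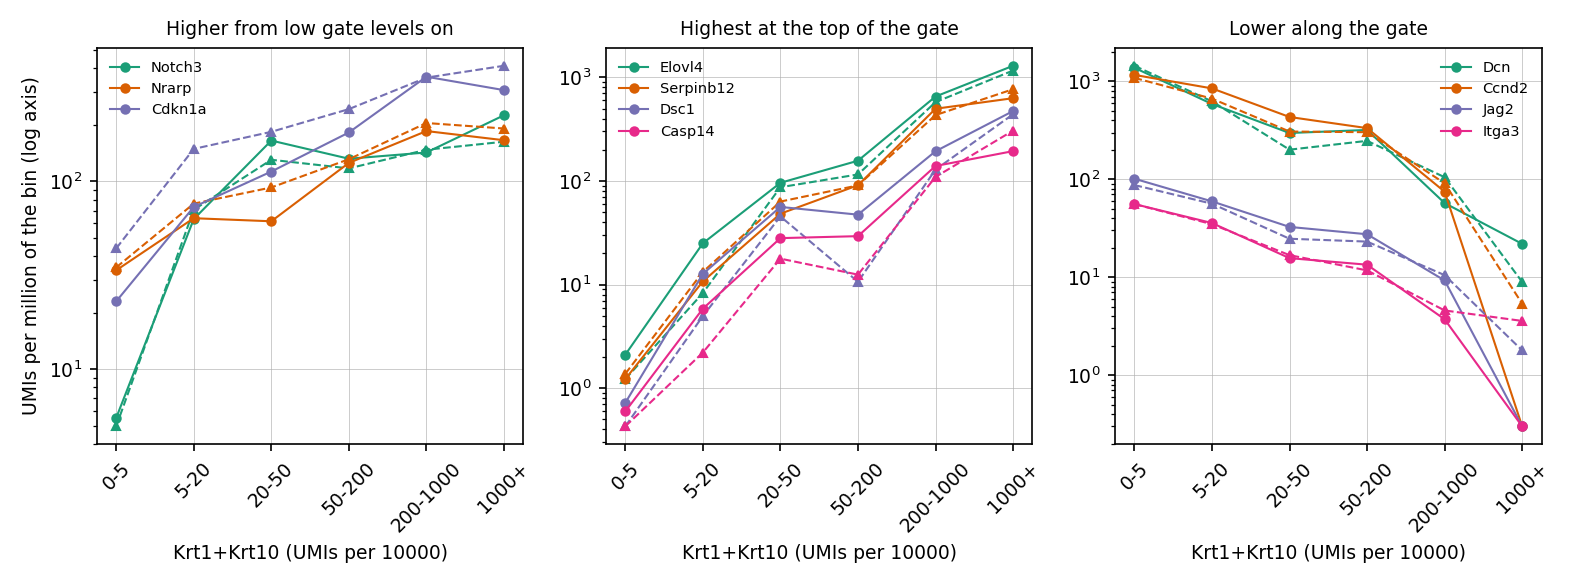
Level in CPM of the bin (log axis) of 11 genes in 6 bins of the Krt1 and Krt10 sum; solid lines with circles are Ctrl replicate 1, dashed lines with triangles replicate 2, and values under 0.3, zeros included, are drawn at 0.3. Notch3 is near its final level at 20 to 50, while Elovl4, Serpinb12, Dsc1 and Casp14 are highest above 1000, a bin of 13 and 23 cells.

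The same limits applied to TKO libraries, which the rule did not use, gave 1077 and 1062 basal and 167 and 358 suprabasal cells. Of 17138 genes tested there, 8312 (48.5%) were called, 24.8% higher in basal and 23.7% in suprabasal cells. Among 16309 genes tested in both genotypes, 7384 were called in both, 69.6% of those called in Ctrl and 91.9% of those called in TKO, and 7331 of them had the same direction. All 30 S phase genes and all 34 genes of G2 and mitosis were again higher in basal cells, and 19 of 22 basement membrane genes called in Ctrl were called in the same direction. The layer difference itself differed between genotypes for 471 of 18670 genes (2.52%), more positive in TKO for 152 (0.814%) and more negative for 319 (1.71%), in a fit of all 4 libraries. The layers also differed in make-up between genotypes. Median Krt1 and Krt10 sums of suprabasal cells were 223 and 341 UMIs per 10000 in TKO against 432 and 393 in Ctrl. Cycling cells made up 32.3% and 21.8% of TKO suprabasal cells against 16.2% and 16.1% in Ctrl, and 84.1% and 81.2% of basal cells against 70.2% and 61.9%. Without cycling cells, 161 layer differences differed between genotypes. Of the Notch genes, 3 were among the 471 (Jag2, Dll1 and Maml2), and none of the 3 was called without cycling cells (differences -1.85, -3.25 and -0.73, edgeR adjusted p 0.0704, 0.129 and 0.0534) or without the replicate block (-1.20, -1.36 and -0.60, edgeR adjusted p 0.119, 0.130 and 0.340). These differences were at least as large as, or close to, those of all cells with the block (-1.21, -1.37 and -0.61). In the main fit the fall of Jag2 was steeper in TKO (-3.74 against -2.57 in Ctrl, difference -1.21, SE 0.16, edgeR adjusted p 0.0165), as was that of Dll1 (-4.17 against -2.84). At 5000 UMIs per cell neither was called (differences -1.55 and -1.89, edgeR adjusted p 0.189 and 0.231), whereas Maml2 was (-0.61, edgeR adjusted p 0.0117). Without Ctrl replicate 1 or 2 the differences were -1.31 and -1.15 for Jag2 and -1.43 and -1.35 for Dll1.

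Glycolysis was the list with the largest share of such genes. In it, 15 of 23 layer differences were more negative in TKO and none more positive, with a median difference of -0.80 against -0.07 over all genes. Bnip3 had 34.2 and 51.4 CPM in basal and 81.9 and 139.6 CPM in suprabasal cells of TKO, against 17.1 and 17.3 and 115 and 98 CPM in Ctrl on the same scale (difference -1.27, SE 0.13, edgeR adjusted p 0.00845). The TKO basal values lay above both Ctrl basal values, and the suprabasal values of the genotypes overlapped. Ldha showed the same order, with 676 and 752 CPM in basal cells of TKO against 317 and 307 CPM in Ctrl, and 1242 and 1389.7 against 1336 and 1175 CPM in suprabasal cells. With cycling cells left out 5 of 23 were called, and without the replicate block edgeR called none (16 of 23 at an unadjusted p under 0.05), whereas DESeq2 with the block called 15. In each of these fits 21 or 22 of 23 differences were below 0.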

How the data were processed

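Single-cell RNA-seq was measured in 2 Ctrl and 2 TKO libraries. The authors made the libraries with 10x Genomics 3' v3 chemistry. For each library they deposited 1 cell-filtered matrix, whose values are unnormalized UMI counts. Per the file headers Cell Ranger 7.1.0 wrote the matrices, a version that differs from the one in the study's methods, and the build is GRCm39. The use of intronic reads is not given in the sources used here. The members and the gene lists were chosen with earlier results of these data known.

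Cells were gated as described above, UMIs were summed per library and layer without the 14 gating genes, and the 4 sums were fitted with edgeR 4.0.16 (R 4.3.3; TMM, filterByExpr, quasi-likelihood test, library and layer as terms, 1 residual degree of freedom). Both layers of a library come from 1 embryo, which pairs them. The sums held 35498631 and 35158360 UMIs (basal) and 23878483 and 11325886 (suprabasal). TKO libraries were fitted alike, and all 4 together (2 residual degrees of freedom) for the difference between genotypes. Log2 differences are suprabasal minus basal. Named were called genes with a symbol other than a Gm or Rik model and of the same sign in both libraries: the 12 largest per direction with at least 20 CPM, up to 3 per list and direction, every member of the Notch, H3K9 and cell cycle inhibitor lists and of lists with under 20 tested genes, and 3 per direction for the genotype difference. Itga6, Ly6d, Sbsn, Dmkn, Krtdap, Lor, Dsp, Cebpa, Klf4, Ovol1, Trp63, Fgfr2, Ptch1, Ldha, Col1a1, Psca, Upk1b, Mal and Dnmt3l were added after their values were seen. Some genes that this rule names are not reported here. Doublets were kept, since the automatic Scrublet threshold (scanpy 1.11.5) marked 2 cells per Ctrl library and had not worked. An alternative left out the top-scoring cells at the expected rate. On simulated sums of 17413 genes the Ctrl fit recovered 59.7%, 70.8% and 96.8% of changes of 1.5-, 2- and 4-fold, with 3 false calls, and on 18789 genes the test of the genotype difference recovered 10.9%, 51.5% and 77.8%, with 5 false calls. The simulations changed few genes and gave all genes the same spread. Their false calls thus do not measure the error rate of the Ctrl comparison, in which most genes were called. Of 17313 tested genes, 17210 had a position in GENCODE vM39. The alternatives were DESeq2 1.42.0, other scaling and filters, no replicate block, all 4 libraries, each library left out, 5000 UMIs per cell, other gates, and no doublets, cycling cells or cells with markers of other types.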

Additional observations from a re-analysis of the deposited data

Results flagged for a closer look

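The layer difference differed between Ctrl and TKO, by a test of the difference itself, for 471 genes. The 3 genes with the largest positive and the 3 with the largest negative values among those called in Ctrl are given next, most of them with few UMIs in Ctrl. Crct1 (10.85, SE 1.30, edgeR adjusted p 0.0118) had 1.24 and 5.62 CPM in basal and 0.0501 and 0 CPM in suprabasal cells of Ctrl, from 1 and 2 basal cells, against 0.91 and 0.118 and 10.3 and 17.4 CPM in TKO, from 4 and 5 suprabasal cells. Krt6a (9.28, SE 0.27, edgeR adjusted p 2.35e-05) had 0.201 and 0.304 CPM in suprabasal cells of Ctrl and 160.2 and 313 CPM in those of TKO, where 16.8% and 29.6% of cells held a UMI, against 0.264% and 0.662% in Ctrl, and 5 cells held 85.3% and 34.8% of the TKO UMIs. Without the cells that held at least 3 of Krt4, Krt6a, Psca, Upk1b and Mal (3 in Ctrl and 1 in TKO), an alternative chosen after seeing the data, the differences of Crct1 and Krt6a were 4.41 and 5.78 and neither was called (edgeR adjusted p 0.966 and 0.167). C1qtnf3 (8.47, edgeR adjusted p 0.0173) rested on 1 to 3 suprabasal cells in each library. Tnxa (-5.11), Dpp6 (-3.96) and Sprr2a3 (-3.35; edgeR adjusted p 0.0118, 0.0128 and 0.0247) were higher in basal cells of TKO than in those of Ctrl, with 20.8% and 18.5%, 8.08% and 7.82% and 22.9% and 25.7% of TKO basal cells holding a UMI against under 1% in each Ctrl library. Suprabasal values of TKO also lay above those of Ctrl, at 7.32 and 6.92 against 0.451 and 0.507 CPM for Tnxa, 1.71 and 1.62 against 1.05 and 0.811 CPM for Dpp6 and 10.7 and 46.4 against 4.11 and 2.43 CPM for Sprr2a3. Without cycling cells C1qtnf3, Tnxa, Dpp6 and Sprr2a3 were not called (edgeR adjusted p 0.0776 to 0.356), and without the replicate block Crct1, C1qtnf3, Dpp6 and Sprr2a3 were not (0.0999 to 0.358).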

How the results depend on the processing

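Of 170 named genes, 160 were called in the Ctrl comparison and 124 of these in every alternative that tested them. DESeq2 called 4116 genes higher in suprabasal and 3475 higher in basal cells. Leaving out 1 Ctrl library, with the other assumed to vary like TKO, gave 6192 to 7418 genes (3316 to 3872 and 2876 to 3546), and 2040 to 2549 at least 2-fold higher in basal cells. Without the replicate block, that is without library as a term, 4727 and 4651 genes were called. The 471 differences between genotypes (152 positive, 319 negative) were less stable: 1534 (841 and 693) with no expression filter, 7 (5 and 2) without the replicate block, 306 (172 negative) at 5000 UMIs per cell, 161 (60 and 101) without cycling cells, and 200 to 1439 (89 to 485 and 111 to 954) with 1 library left out. Signs turned without cycling cells for Notch1 (-0.22), Jag1 (-0.059), Ndc80 (0.051), Kif11 (0.41), Cdkn2d (0.24), Setdb1 (0.012), Setdb2 (0.11), Dnmt1 (0.089) and Smarca5 (0.16); on library sizes alone for Plec (-0.082), Notch1 (-0.11), Jag1 (-0.17) and Adam10 (-0.019); with the suprabasal limit at 200 for Notch1 (-0.21) and Jag1 (-0.032); at 5000 UMIs for Wnt7b (-0.021); and with 1 Ctrl library left out for Setdb1 (-0.097 to 0.078), Rbl2 (-0.45 to 0.00876) and Smarca5 (-0.073 to 5.97e-05). Apart from the smaller numbers of libraries, cells or UMIs, the cause was not tested. With 2 embryos, differences between animals of a genotype were poorly sampled.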
